A study of Magallana angulata with 8 samples.

Results

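The genes described here move metal ions across membranes or store iron in the Fujian oyster, *C. angulata*. They were found by their annotation: a gene was taken when the protein description attached to it held one of 13 terms, such as zinc transporter, copper-transporting, ferritin, ceruloplasmin, mitoferrin or magnesium transporter. The rule found 40 of the 25647 genes of the table. One of them, OYG_10010416_10012448, is a pyruvate dehydrogenase phosphatase whose description holds the letters of transferrin inside the word "acetyl-transferring", and it was set aside. The other 39 comprised 4 genes of copper transport, 16 ZIP and 7 ZnT zinc transporters, 5 ferritins, 1 ceruloplasmin, 2 mitoferrins and 4 magnesium or CNNM transporters. No gene was annotated as transferrin, hephaestin or ferroportin.

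Digital gene expression profiling, in which sequenced reads are counted gene by gene, was performed on 8 libraries of gill (G) and mantle (M) of adult oysters. Each library was made from the pooled tissue of 6 oysters and was the only one of its condition. The libraries numbered 2 (G2-H, G2-L and their mantle counterparts M2-H, M2-L) came from oysters kept for 30 days in tanks with 30 µg/L of added Cu as CuCl2, and those numbered 1 (G1-H, G1-L and likewise M1-H, M1-L) from oysters of the same farm that were dissected without exposure. Within each of these groups, H stands for the oysters with the highest and L for those with the lowest Cu concentration in their tissues. The gill and the mantle library of a condition, such as G2-L and M2-L, came from the same 6 oysters, so 4 sets of oysters stand behind the 8 libraries and 2 sets behind each Cu class or exposure group. The exposed oysters had also been acclimated, kept in filtered seawater and fed algal powder, so Cu exposure and tank keeping cannot be told apart. The question behind the pools was which genes go with a high or a low Cu content among oysters of one origin.

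Metal ions are needed by many enzymes and are harmful in excess, and cells hold them within limits through importers, exporters and storage proteins. ZIP proteins carry zinc into the cytosol, ZnT proteins carry it out of the cytosol or into vesicles, and copper-transporting ATPases pump copper out of the cell or into the secretory pathway. Ferritin stores iron inside a protein shell, ceruloplasmin is a copper-bearing enzyme that oxidizes iron, and mitoferrin brings iron into mitochondria. These roles are known mainly from mammals. Gills and mantle are the tissues of an oyster that face the seawater, and oysters are known for the large amounts of copper and zinc that they hold.

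The values are RPKM, reads per kilobase of gene model scaled to the depth of the library. Whole reads were recovered from the steps of these values, and the recovered totals were between 2013866 and 2587697 reads per library. The 39 genes took between 0.380% and 1.28% of the reads. Of the 39 genes, 36 had a mean of at least 1 RPKM over the 8 libraries and were tested, as were 20123 genes in all. The other 3 genes, a copper-transporting ATPase (OYG_10021414_10008907), a yolk ferritin (OYG_10023567_10022786) and a ferritin lower subunit (OYG_10023568_10022785), had between 1 and 4 reads over all libraries together and were not compared. As a check of the tissue labels, 22 of the 33 tested genes of ciliated cells were higher in gill (summed RPKM of the list of 38 genes, 2773 to 4156 in gill and 845 to 1143 in mantle), while 10 of the 12 tested tyrosinases and 7 of the 10 tested muscle genes were lower. Chitin synthases, taken with the tyrosinases as markers of shell-forming mantle, went the other way, with 5 of 9 tested genes higher in gill and 0 lower. Of the 3 tested gonad genes, 0 were called in either direction. The part of such cell types in the tissue differences below was not tested. In pools of whole tissue, fewer cells of a type and less RNA per cell cannot be told apart. M2-L stood apart from the other libraries in its median log2 level over the tested genes, 2.84 against 3.25 to 3.44 in the others. Its 100 most read genes took 33.2% of its reads, against 16.8% (G2-H) to 29.5% (M1-L) in the others.

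**Figure D1:**
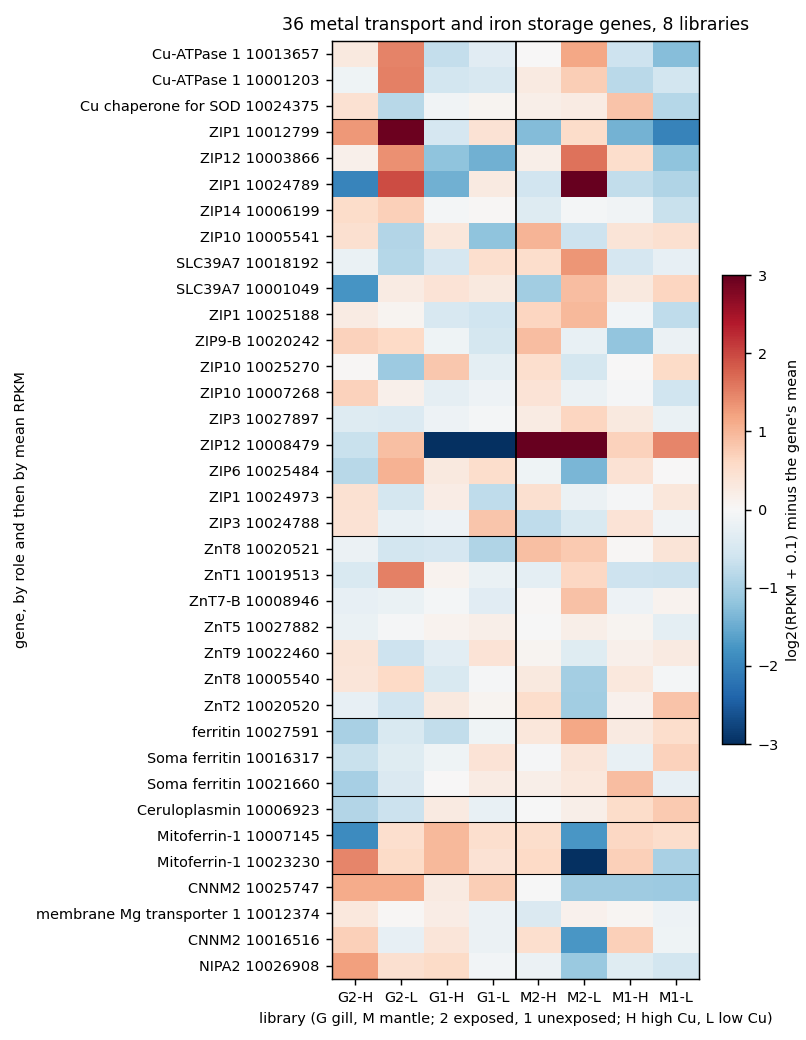
Heat map of the 36 tested genes (rows, grouped by role and sorted by mean RPKM within a role) in the 8 libraries (columns). Colour is the log2 of RPKM plus 0.1 minus the mean of that gene, capped at 3 in either direction. Departures of more than 3 lie in ZIP12 OYG_10008479_10034801, ZIP1 OYG_10024789_10035740 and mitoferrin-1 OYG_10023230_10040099 (no read in M2-L), and 8 genes are highest in the exposed low-Cu library of both tissues (G2-L and M2-L).

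The level of these genes spanned a wide range. One ferritin gene, OYG_10027591_10009092, lay between 4803 and 21056 RPKM, ranked between 1 and 9 among all genes of a library, and took 0.248% to 1.09% of all reads by itself. A soma ferritin followed at a mean of 192 RPKM, then ceruloplasmin at 99.3, zinc transporter 8 (OYG_10020521_10038543) at 86.8 and zinc transporter 1 (OYG_10019513_10015620) at 74.5 RPKM. The 3 tested copper genes averaged between 6.44 and 15.4 RPKM, and both mitoferrin genes between 1.84 and 2.18 RPKM, with at most 8 reads in a library. Some genes share an annotation and the second number of their identifier: both measurable copper-transporting ATPases, both SLC39A7 genes, both soma ferritins and both mitoferrins. Reads of such near copies may have been divided between them by the mapping, so their sums are given where they bear on a result.

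The first comparison was gill against mantle. Of the 36 genes, 6 differed between the tissues, 2 higher and 4 lower in gill (limma on log2 of RPKM plus 0.1, with terms for Cu class and exposure, adjusted p under 0.05 over all tested genes). The background was 15.7% of the 20123 tested genes, 9.77% higher and 5.92% lower in gill. The median log2 difference of the 36 genes was -0.13 in gill over mantle, beside 0.21 over all tested genes.

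The most abundant of these was the iron store. The ferritin OYG_10027591_10009092 had 4803, 6803, 5636 and 8651 RPKM in the gill libraries G2-H, G2-L, G1-H and G1-L, against 11812, 21056, 11236 and 13615 RPKM in the mantle libraries M2-H, M2-L, M1-H and M1-L. Every gill library lay below every mantle library. The difference was -1.14 on the log2 scale (SE 0.29, adjusted p = 0.0298, limma). Within a matched condition, mantle held between 1.57 and 3.10 times the gill level. The call was lost when any 1 of the 8 libraries was left out (adjusted p between 0.0550 and 0.127), when libraries were centred on their medians (0.0807), under quantile normalization (0.149, log2 -0.44) and with a term for each of the 4 oyster sets (0.0562), while the direction stayed. It held in 5 of 19 alternatives.

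Ceruloplasmin (OYG_10006923_10010814), the ferroxidase, was lower in gill as well. It had 50.7, 59.8, 112 and 79.6 RPKM in G2-H, G2-L, G1-H and G1-L, against 92.7, 105, 136 and 160 RPKM in M2-H, M2-L, M1-H and M1-L. The tissues overlapped in the single library G1-H, although each gill library was below the mantle library of its own condition. The log2 difference was -0.74 (SE 0.19, adjusted p = 0.0358, limma). Leaving out any library other than G1-H moved the adjusted p to between 0.0588 and 0.150, and the call was also lost without the intensity trend (0.107), without the term for the oyster group (0.147) and without both G2-L and M2-L (0.0662), so that it held in 9 of 19 alternatives. The 5 extracellular superoxide dismutase genes taken as markers of hemocytes also had a lower sum in gill in each matched condition, with 5002 RPKM in G2-H against 14356 in M2-H, 1015 in G2-L against 9185 in M2-L, 20014 in G1-H against 40432 in M1-H and 17313 in G1-L against 43862 in M1-L, and 2 of the 5 were called lower. The study names this enzyme among antioxidant genes that Cu exposure can stimulate, so the sum is not a count of hemocytes. The part of these 5 genes in the ferritin and ceruloplasmin differences was not tested. Neither soma ferritin passed the test between tissues. OYG_10016317_10020149 averaged 168 ± 56.5 RPKM in gill and 217 ± 61.8 RPKM in mantle (SD, n = 4 each).

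Among the zinc transporters, ZIP12 OYG_10008479_10034801 stood at 1.35 and 4.26 RPKM in G2-H and G2-L and had no read in G1-H and G1-L, against 19.7, 27.9, 3.62 and 6.36 RPKM in M2-H, M2-L, M1-H and M1-L. It rested on 12 reads in gill and 114 in mantle. The mantle libraries together held 9.97 times the gill level, with an exact 95% interval of 5.49 to 19.9 that covers counting error only. The fitted log2 difference of -4.42 (SE 0.65, adjusted p = 0.00304, limma) depends on the pseudocount because of the libraries without a read, and lay between -6.10 and -2.67 in the alternatives. Zinc transporter 8, OYG_10020521_10038543, which in mammals loads zinc into secretory granules, had 70.5, 54.2, 55.6 and 42.4 RPKM in G2-H, G2-L, G1-H and G1-L, against 149, 138, 81.1 and 104 RPKM in M2-H, M2-L, M1-H and M1-L. Its gill and mantle values did not overlap, and its log2 difference was -1.06 (SE 0.20, adjusted p = 0.00881, limma). This call held in all 19 alternatives run for it.

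ZIP1 OYG_10012799_10035739 had the opposite direction, with 68.0, 213, 19.2 and 37.1 RPKM in G2-H, G2-L, G1-H and G1-L, against 11.2, 40.4, 10.2 and 6.72 RPKM in M2-H, M2-L, M1-H and M1-L. Gill exceeded mantle in each matched condition, by between 1.89 and 6.09 times. The log2 difference was 2.09 (SE 0.41, adjusted p = 0.0107, limma). A CNNM2 gene, OYG_10025747_10031490, from a family linked to magnesium handling in mammals, had 34.1, 34.2, 18.9 and 26.2 RPKM in G2-H, G2-L, G1-H and G1-L, against 15.7, 7.41, 7.42 and 7.39 RPKM in M2-H, M2-L, M1-H and M1-L. All gill libraries were above all mantle libraries, with a log2 difference of 1.62 (SE 0.29, adjusted p = 0.00752, limma), and the call held in all 19 alternatives. Without the term for the oyster group, which marks exposure, ZIP1 (adjusted p = 0.0843) and ZIP12 (0.0535) missed the threshold.

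NIPA2 and ZIP14 did not overlap between tissues without passing the test. The magnesium transporter NIPA2 (OYG_10026908_10012197) had 6.43 to 15.9 RPKM in gill and 3.06 to 5.98 RPKM in mantle (log2 1.10, adjusted p = 0.0585, limma), and it passed in 3 of 19 alternatives, among them limma-voom on the recovered reads (0.0187). ZIP14 (OYG_10006199_10022738), whose mammalian counterpart also carries iron, had 27.4 to 47.1 RPKM in gill and 17.9 to 27.3 RPKM in mantle (log2 0.62, adjusted p = 0.121, limma). In all, 3 genes lay with every gill library above and 2 with every gill library below the mantle libraries, where the background was 12.6% and 6.99% of tested genes.

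**Figure D2:**
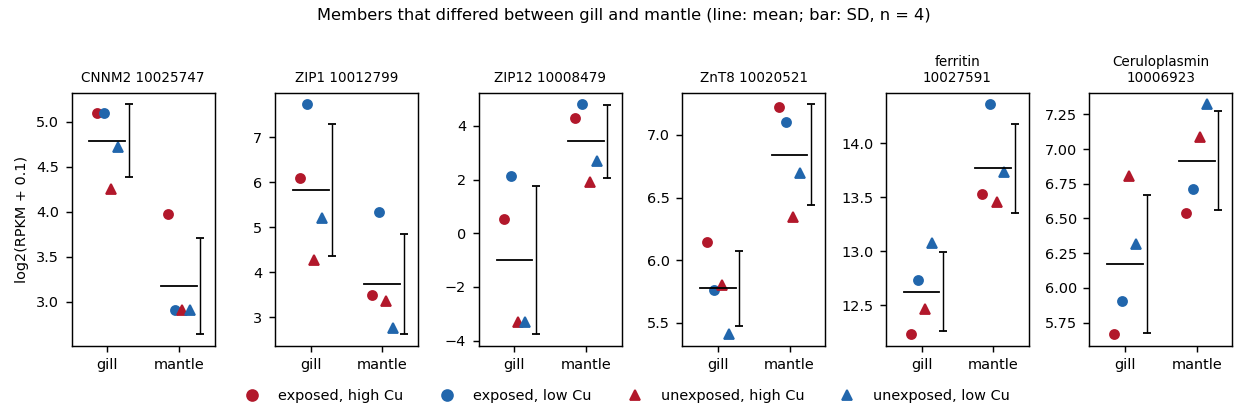
Log2 of RPKM plus 0.1 in each library for the 6 genes called between gill (left) and mantle (right). Horizontal lines are means and bars SDs over 4 libraries. CNNM2, zinc transporter 8 and ferritin do not overlap between tissues, whereas ZIP1, ZIP12 and ceruloplasmin do.

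The second comparison set exposed oysters against unexposed ones, over both tissues and Cu classes. No gene of the 36 passed the adjusted test (limma), and 9 had an unadjusted p under 0.05, 8 of them higher in the exposed oysters. The background was 0.00497% of genes called, 1 of 20123, and 12.7% at an unadjusted p under 0.05, of which 5.51% were higher and 7.24% lower. Limma-voom on the recovered reads called 0 of the 36 genes and 62 of all genes. The median log2 difference of the 36 genes was 0.09 beside -0.07 over all tested genes. It was 0.40 for the 16 ZIP genes, 0.13 for the 7 ZnT genes and -0.36 for the 3 tested ferritins.

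The copper pumps were 2 of the 3 genes in which every exposed library lay above every unexposed one, an arrangement found in 1.65% of tested genes. The copper-transporting ATPase 1 gene OYG_10013657_10031298, whose mammalian counterpart exports copper, had 15.5 and 35.7 RPKM in the exposed gill libraries G2-H and G2-L and 12.7 and 28.3 RPKM in the mantle libraries M2-H and M2-L, against 7.69 and 10.01 RPKM in the unexposed gill libraries G1-H and G1-L and 8.25 and 5.15 RPKM in the mantle libraries M1-H and M1-L. Its near copy, OYG_10001203_10031298, had 9.96 and 31.4 RPKM in G2-H and G2-L and 13.03 and 18.3 RPKM in M2-H and M2-L, against 7.38 and 7.71 RPKM in G1-H and G1-L and 6.19 and 7.38 RPKM in M1-H and M1-L. Neither gene overlapped between the groups, and the exposed low-Cu library was the highest of its tissue in both genes. The log2 differences were 1.47 (SE 0.35, unadjusted p = 0.00276, adjusted p = 0.166) and 1.20 (SE 0.32, unadjusted p = 0.00554, adjusted p = 0.201) by limma. Without G2-L and M2-L they were 0.81 and 0.74 (adjusted p = 0.458 and 0.461). The sum of both genes was 25.5 and 67.1 RPKM in G2-H and G2-L and 25.8 and 46.6 RPKM in M2-H and M2-L, against 15.1 and 17.7 RPKM in G1-H and G1-L and 14.4 and 12.5 RPKM in M1-H and M1-L, so the order of the groups did not depend on how reads were divided between them. The copper chaperone for superoxide dismutase (OYG_10024375_10041186), which hands copper to that enzyme, had 4 to 15 reads per library and 3.32 to 8.20 RPKM in exposed against 3.24 to 10.9 RPKM in unexposed oysters.

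The largest exposure difference was in ZIP12 OYG_10008479_10034801, the mantle gene above. In mantle it had 5.44 times (exact 95% counting interval 2.42 to 14.4) as much RNA in M2-H as in M1-H, and 4.39 times (2.27 to 9.30) as much in M2-L as in M1-L. In gill, G2-L with 9 reads was at least 2.50-fold higher than the limit that 3 reads set in G1-L, and G2-H had 3 reads against none in G1-H, which gives no bound. The fitted log2 difference was 3.46 (SE 0.65, unadjusted p = 0.00064, adjusted p = 0.146, limma), and it lay between 1.94 (pseudocount of 1) and 5.10 (pseudocount of 0.01) in the alternatives, because of the libraries without a read. A second ZIP12, OYG_10003866_10023342, had 33.3 and 76.6 RPKM in G2-H and G2-L and 33.6 and 91.8 RPKM in M2-H and M2-L, against 12.9 and 10.9 RPKM in G1-H and G1-L and 42.7 and 12.9 RPKM in M1-H and M1-L. The groups of the second gene overlapped through M1-H alone (log2 1.66, SE 0.50, adjusted p = 0.242, limma). Without G2-L and M2-L, its log2 difference was 0.51 (adjusted p = 0.682).

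Of the ZIP1 genes, OYG_10025188_10004267 was the third without overlap, with 15.0 and 13.3 RPKM in G2-H and G2-L and 19.7 and 24.7 RPKM in M2-H and M2-L, against 8.97 and 8.25 RPKM in G1-H and G1-L and 11.9 and 7.41 RPKM in M1-H and M1-L (log2 0.97, SE 0.28, adjusted p = 0.220, limma). ZIP1 OYG_10012799_10035739, whose values are given above, had 3.54 times (2.52 to 5.07) as much RNA in G2-H as in G1-H and 5.74 times (4.48 to 7.44) as much in G2-L as in G1-L. In mantle the ratio was 1.10 (0.598 to 2.03) between M2-H and M1-H and 6.01 (3.34 to 11.7) between M2-L and M1-L, so the high-Cu mantles did not differ beyond counting error. The fitted log2 difference over all libraries was 1.76 (SE 0.41, adjusted p = 0.164, limma), and 0.97 (adjusted p = 0.458) without G2-L and M2-L. ZIP9-B (OYG_10020242_10029743, mean 17.6 ± 5.33 RPKM in exposed and 8.76 ± 2.65 RPKM in unexposed oysters, SD, n = 4 each, adjusted p = 0.308, limma) and zinc transporter 8 (103 ± 47.6 and 70.7 ± 27.2 RPKM, adjusted p = 0.352, limma) completed the 8 genes that were higher at an unadjusted p under 0.05.

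Ceruloplasmin was the single gene of the 36 that was lower in exposed oysters at an unadjusted p under 0.05. From its values above, the exposed level was 0.454 (0.408 to 0.506) times the unexposed one in high-Cu gills, 0.751 (0.670 to 0.842) in low-Cu gills, 0.683 (0.625 to 0.746) in high-Cu mantles and 0.654 (0.600 to 0.712) in low-Cu mantles. All 4 ratios were below 1, and the fitted log2 difference was -0.68 (SE 0.19, unadjusted p = 0.00781, adjusted p = 0.220, limma). The summed RPKM of the hemocyte markers, given above by library, was lower in the exposed library of each matched condition as well, and none of the 5 was called. Their part in the ceruloplasmin values was not tested.

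The third comparison, high against low Cu content, was the one for which the pools were made. No gene of the 36 passed the adjusted test (limma), as was so for all 20123 tested genes. At an unadjusted p under 0.05, 2 were higher and 4 lower in the high-Cu libraries, with a background of 10.7%, of which 6.86% were higher and 3.80% lower. Limma-voom on recovered reads also called 0 of them. The smallest adjusted p of the 36 genes was 0.466. The median log2 difference was 0.04, beside 0.15 over all tested genes, and it was -0.51 for the 3 tested copper genes, -0.02 for the ZIP genes, 0.13 for the ZnT genes and -0.54 for the tested ferritins.

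The dominant ferritin was lower in the high-Cu library of every pair. Its high over low ratio was 0.706 in G2 (exact 95% counting interval 0.684 to 0.729), 0.651 in G1 (0.631 to 0.672), 0.561 in M2 (0.550 to 0.573) and 0.825 in M1 (0.806 to 0.845). These intervals exclude 1 but cover counting error only, and over the 4 pairs the log2 difference of -0.56 was not past the test (SE 0.29, unadjusted p = 0.0861, adjusted p = 0.477, limma). The soma ferritin OYG_10016317_10020149 had 115, 167, 180 and 157 RPKM in G2-H, G1-H, M2-H and M1-H, against 142, 246, 235 and 295 RPKM in G2-L, G1-L, M2-L and M1-L. It too was lower in the high-Cu library of all 4 pairs, with ratios between 0.531 and 0.809, and high and low values overlapped (log2 -0.54, SE 0.20, unadjusted p = 0.0287, adjusted p = 0.466, limma). Its near copy, OYG_10021660_10020149, was higher in M1-H than in M1-L (82.6 against 36.5 RPKM), and its log2 difference was 0.06 (SE 0.32, adjusted p = 0.940, limma). The sum of both was still lower in the high-Cu library of each pair, with 137, 211, 229 and 239 RPKM in G2-H, G1-H, M2-H and M1-H, against 174, 297, 289 and 331 RPKM in G2-L, G1-L, M2-L and M1-L. The share of all tested genes that were lower in all 4 pairs was not counted.

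The study compared high with low Cu within each pair of libraries and looked for genes shared by both pairs of a tissue. Its methods give a log2 threshold of 2 and a significance cut-off, though some genes that it lists have smaller ratios. The count here used a lower threshold and no test. When both pairs had to differ by 2-fold or more with the same sign, 3 genes qualified in gill, where 5.44% of tested genes did (2.31% higher, 3.13% lower), and 1 in mantle, where 7.97% did (5.02% higher, 2.95% lower). In gill, 2 ZIP10 genes were higher in the high-Cu libraries and 1 ZIP1 gene was lower. ZIP10 OYG_10005541_10026953 had 37.1 RPKM in G2-H against 14.3 in G2-L, and 33.5 in G1-H against 11.4 in G1-L. In mantle it had 53.9 RPKM in M2-H against 17.0 in M2-L, but 34.5 in M1-H against 36.8 in M1-L, so 3 of the 4 pairs differed beyond counting error, while the interval of the unexposed mantle pair held 1 (ratio 0.936, 0.732 to 1.20). Its log2 difference of 1.12 (SE 0.32, unadjusted p = 0.00785, adjusted p = 0.466, limma) had the smallest unadjusted p of the 36 genes here. The other ZIP10, OYG_10025270_10004352, showed the same 3 pairs at 2.22 (1.18 to 4.37) in G2, 2.16 (1.29 to 3.72) in G1 and 2.07 (1.21 to 3.66) in M2, and 0.671 (0.404 to 1.11) in M1, on 15 to 54 reads per library.

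The ZIP1 gene OYG_10024789_10035740 had the largest difference. It had 4.21 RPKM in G2-H against 67.0 in G2-L, and 6.24 in G1-H against 20.7 in G1-L. In mantle it had 11.5 RPKM in M2-H against 180 in M2-L, and 10.2 in M1-H against 9.02 in M1-L. The high-Cu library was lower by 15.9 times (8.13 to 35.5) in G2, by 3.32 times (1.68 to 7.02) in G1 and by 15.7 times (10.3 to 25.04) in M2, while M1 did not differ beyond counting error. Over all libraries the log2 difference was -2.36 (SE 0.70, unadjusted p = 0.00927, adjusted p = 0.466, limma), and -0.77 (adjusted p = 0.781) without G2-L and M2-L. In mantle the only gene to qualify was mitoferrin-1 OYG_10023230_10040099, with 4 reads in M2-H against 0 in M2-L and 4 in M1-H against 1 in M1-L, and the counting interval of the M1 ratio, 0.354 to 176, holds 1.

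CNNM2 OYG_10016516_10041879 and this mitoferrin were the 2 genes with every high-Cu library above every low-Cu one, an arrangement of 2.12% of tested genes, and no gene had the reverse, an arrangement of 1.19%. CNNM2 had 21.4, 16.6, 18.3 and 21.3 RPKM in G2-H, G1-H, M2-H and M1-H, against 10.9, 11.4, 3.81 and 11.9 RPKM in G2-L, G1-L, M2-L and M1-L. The ratio within pairs was between 1.46 and 4.81, and M2-L was the lowest of the low-Cu libraries. The log2 difference was 1.14 (SE 0.37, unadjusted p = 0.0147, adjusted p = 0.466, limma).

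**Figure D3:**
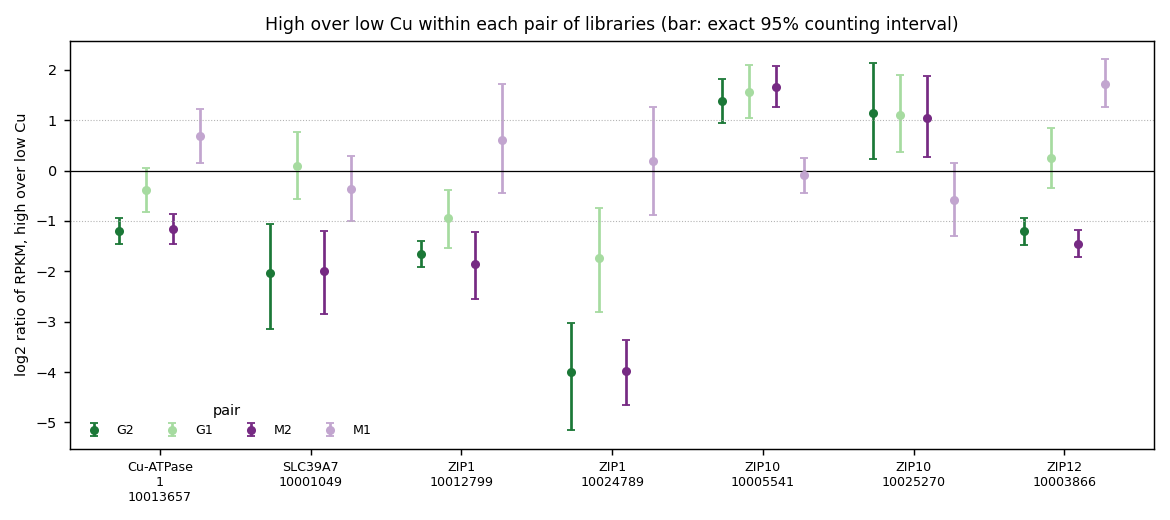
Log2 ratio of RPKM, high over low Cu, within the pairs G2, G1, M2 and M1 for the 7 genes with a 2-fold or larger difference of the same sign in both exposed pairs. Bars are exact 95% counting intervals on the recovered reads, and dotted lines mark 2-fold. The exposed pairs G2 and M2 lie on the same side of 0 in every gene, and for the 5 genes that lie below 0 in the exposed pairs the unexposed mantle pair M1 lies above -1.

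Arranged by exposure instead of by tissue, the same pairs gave 7 genes with a 2-fold or larger difference of the same sign in gill and mantle of exposed oysters, 2 higher and 5 lower, and 0 in unexposed oysters. Since both tissues of a pair come from the same oysters, they are not separate samples of them. The background was 10.1% of tested genes in exposed (5.54% higher, 4.58% lower) and 4.77% in unexposed oysters. This count was chosen after the values had been seen. Lower in both exposed high-Cu libraries were ZIP1 OYG_10024789_10035740, ZIP1 OYG_10012799_10035739, ZIP12 OYG_10003866_10023342, the copper-transporting ATPase 1 gene OYG_10013657_10031298 and SLC39A7 OYG_10001049_10039109, and higher were both ZIP10 genes. For ZIP1 OYG_10012799_10035739 the high-Cu library was lower by 3.13 times (2.63 to 3.75) in G2 and by 3.62 times (2.31 to 5.83) in M2. For the ATPase it was lower by 2.30 times (1.93 to 2.75) in G2 and by 2.22 times (1.82 to 2.73) in M2, whereas the high-Cu library was higher in M1 (ratio 1.60, 1.11 to 2.33) and the G1 interval held 1 (0.768, 0.565 to 1.04).

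A Cu by exposure term was also fitted, and it too was added after the values had been seen. Each combination of Cu class and exposure had 1 set of oysters, so the p-values of this term rest on gill and mantle of the same oysters. They cannot tell a Cu difference that depends on exposure from a difference between sets of oysters. No gene of the 36 and none of all tested genes passed (limma, smallest adjusted p of the 36 genes 0.908), and 6 of the 36 had an unadjusted p under 0.05, all in the negative direction, with a background of 5.32% (2.90% positive, 2.43% negative). They were SLC39A7 OYG_10001049_10039109, ZIP12 OYG_10003866_10023342, zinc transporter 1, the ZIP1 genes OYG_10024789_10035740 and OYG_10012799_10035739, and the ATPase OYG_10013657_10031298. Their log2 differences in exposed minus unexposed oysters were between -3.19 and -1.32.

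Seen library by library, 8 of the 36 genes were highest in the exposed low-Cu library of both tissues, where 7.02% of all tested genes were, and 12.7% after median centring of the libraries, which left the count for these genes at 8. In 4 of them, ZIP12 OYG_10003866_10023342, both ZIP1 genes named in the previous paragraph and the ATPase OYG_10013657_10031298, these libraries stood at least 2-fold above the next one of their tissue (1.04% of tested genes). The other 4 were the second ATPase, ZIP12 OYG_10008479_10034801, ZIP14 and zinc transporter 1. Zinc transporter 1, OYG_10019513_10015620, the exporter of the cell surface in mammals, had 47.1 RPKM in G2-H against 187 in G2-L and 69.5 in G1-H against 56.4 in G1-L. In mantle it had 52.9 RPKM in M2-H against 99.4 in M2-L, and 42.5 in M1-H against 41.5 in M1-L. Its high-Cu library was thus lower by 3.96 times (3.31 to 4.76) in G2 and by 1.88 times (1.54 to 2.29) in M2, and the unexposed pairs did not differ beyond counting error. The opposite arrangement, lowest in G2-L and in M2-L, was found in 4 of the 36 genes (CNNM2 OYG_10016516_10041879, ZIP10 OYG_10025270_10004352, zinc transporter 2 and zinc transporter 9) and in 13.9% of tested genes. G2-L and M2-L were also the libraries with the lowest summed RPKM of the hemocyte markers in their tissue, and M2-L the one with the lowest median level, and the part of these in the pattern was not tested. This arrangement, too, was picked out after the values had been seen.

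**Figure D4:**
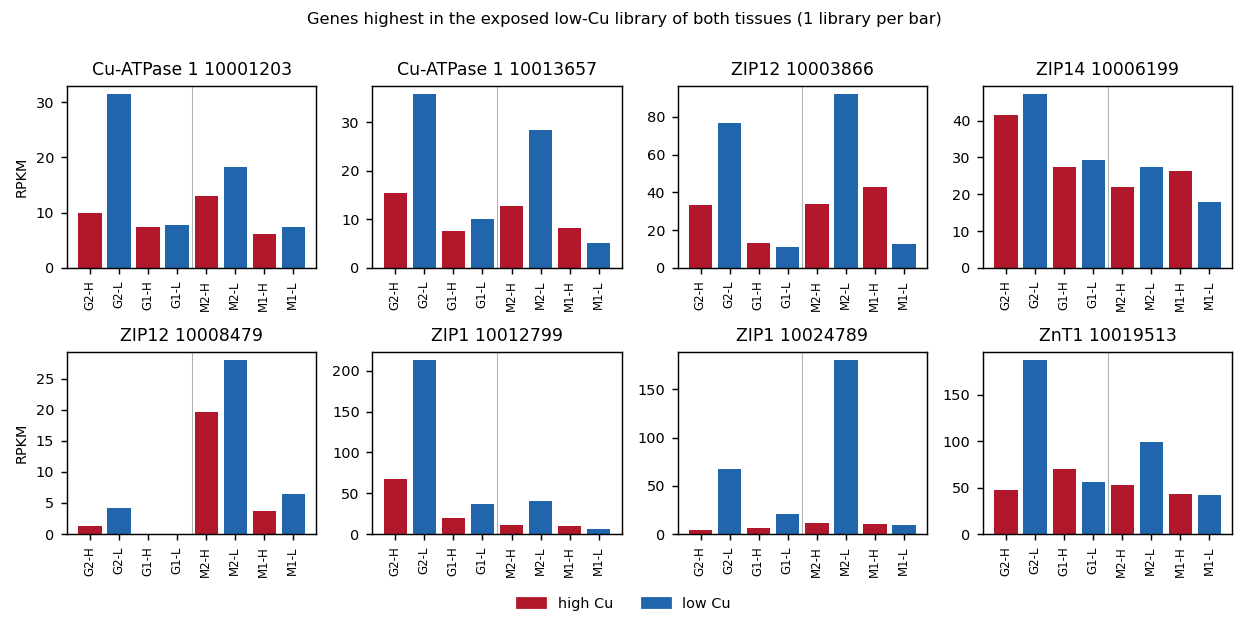
RPKM of the 8 genes that were highest in the exposed low-Cu library of both tissues, 1 bar per library, gill left and mantle right of the grey line, exposed left of unexposed, high Cu in red and low Cu in blue. ZIP1 OYG_10024789_10035740 reaches 67.0 RPKM in G2-L and 180 RPKM in M2-L and no more than 20.7 RPKM elsewhere.

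SLC39A7, which in mammals releases zinc from the endoplasmic reticulum, departed from this by its low values. OYG_10001049_10039109 had 5.45 RPKM in G2-H against 22.4 in G2-L, 24.8 in G1-H against 23.1 in G1-L, 8.99 in M2-H against 35.7 in M2-L, and 22.8 in M1-H against 29.3 in M1-L. Both exposed high-Cu libraries were low, and the other 6 lay between 22.4 and 35.7 RPKM. Its near copy OYG_10018192_10039109 did not follow it, with 18.5 RPKM in G2-H against 11.7 in G2-L and 30.7 in M2-H against 53.8 in M2-L. The sum of both was 24.0 RPKM in G2-H against 34.1 in G2-L, and 39.6 in M2-H against 89.6 in M2-L, a smaller contrast in both tissues than for the first gene alone.

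With a separate difference for each tissue, fitted to all 8 libraries with 1 shared residual spread, 0 of the 36 genes passed the adjusted test (limma) for Cu content in gill or in mantle, or for exposure in gill or in mantle. At an unadjusted p under 0.05 there were 2 and 3 genes for Cu content in gill and in mantle (background 4.64% and 12.2%, with 0.00497% and 0.0% at the adjusted threshold), and 7 and 5 genes for exposure in gill and in mantle (background 10.6% and 9.26%, with 0.0845% and 0.00497% at the adjusted threshold). The copper-transporting ATPase gene OYG_10013657_10031298 and ZIP12 OYG_10008479_10034801 were among them for exposure in both tissues. The Cu and the exposure differences were also compared between gill and mantle. No gene of the 36 and none of all tested genes passed either test of a difference between tissues (limma). For the Cu difference 0 of the 36 and for the exposure difference 1 had an unadjusted p under 0.05, where the background was 4.35% (1.46% positive, 2.90% negative) and 6.13% (3.26% positive, 2.86% negative). The 1 gene was SLC39A7 OYG_10018192_10039109, with a log2 of -1.84 for the exposure difference in gill minus that in mantle (SE 0.67, unadjusted p = 0.0317, adjusted p = 0.742). Zinc transporter 5 (OYG_10027882_10020131) ranged over the 8 libraries between 12.0 and 16.8 RPKM, and zinc transporter 7-B (OYG_10008946_10040395) between 21.6 and 29.6 RPKM in 7 libraries, with 50.2 RPKM in M2-L. Both carry zinc into the secretory pathway in mammals.

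The remaining tested genes were low and are given by their range over the 8 libraries. Among importers, ZIP3 OYG_10024788_10026441 lay between 1.47 and 4.63 RPKM, ZIP3 OYG_10027897_10020819 between 5.90 and 12.3, ZIP1 OYG_10024973_10042057 between 3.52 and 8.51, ZIP6 (OYG_10025484_10015033) between 2.20 and 12.1 and ZIP10 OYG_10007268_10023556 between 5.59 and 13.9 RPKM. The third ZIP10 thus stayed below the level that the first, OYG_10005541_10026953, reached in every high-Cu library. Among exporters, zinc transporter 2 (OYG_10020520_10038542) lay between 2.73 and 10.5 RPKM, zinc transporter 9 (OYG_10022460_10039453) between 9.17 and 19.0, and the second zinc transporter 8 (OYG_10005540_10026952) between 3.95 and 12.4 RPKM. Membrane magnesium transporter 1 (OYG_10012374_10015774) lay between 12.4 and 20.9 RPKM on 10 to 18 reads. None of these 9 genes passed the adjusted test in a contrast (limma).

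Other genes of metal handling were taken from a list of 23 annotation terms, of which 59 genes were found and 54 tested. Between tissues, 17 of the 54 were higher and 3 lower in gill, beside 9.77% and 5.92% of all tested genes, and 16 of the 17 were transient receptor potential channels of subfamily M, a cation channel family of which 24 genes were tested. The other was a ferric-chelate reductase 1 (OYG_10005730_10016427), one of the enzymes that reduce iron before uptake. The 3 lower ones were a putative ferric-chelate reductase 1 (OYG_10014987_10010260), a subfamily M channel (OYG_10018819_10004569) and a high affinity copper uptake protein 1, the importer of copper in mammals. OYG_10026371_10014878 had 6.02, 6.34, 7.53 and 5.71 RPKM in G2-H, G2-L, G1-H and G1-L, against 16.9, 22.1, 16.5 and 21.3 RPKM in M2-H, M2-L, M1-H and M1-L (log2 -1.56, SE 0.26, adjusted p = 0.00570, limma), on 6 to 26 reads. Its gill and mantle values did not overlap. The possible near copy of this gene, OYG_10018882_10014878, was more abundant, with 123, 107, 51.6 and 49.3 RPKM in G2-H, G2-L, G1-H and G1-L. In M2-H, M2-L, M1-H and M1-L it had 138, 46.8, 87.6 and 81.9 RPKM. It did not pass the test between tissues (log2 -0.12, SE 0.35, adjusted p = 0.854, limma), and the sum of both genes was not tested. None of the 54 genes passed in the Cu or in the exposure contrast, where 11 and 8 had an unadjusted p under 0.05, beside 10.7% and 12.7% of all tested genes.

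Metallothioneins, small proteins that bind copper and zinc, were found among the same genes. Of the 5, 3 were highest in G2-L and M2-L, as were 7.02% of all tested genes and 12.7% after median centring. Over the 54 tested genes of the whole list, these 3 included, the count was 6. Of these 3, OYG_10021196_10007768 and OYG_10000066_10007768 share the second number of their identifier and may be near copies. OYG_10000066_10007768 rested on 0 to 28 reads per library. OYG_10021194_10012460 had 38.1 RPKM in G2-H against 293 in G2-L and 78.9 in M2-H against 616 in M2-L, with 55.6 to 67.2 RPKM in the unexposed libraries. OYG_10012042_10029507 had the reverse order within the exposed pairs, with 257 RPKM in G2-H against 30.4 in G2-L and 557 in M2-H against 209 in M2-L. Its possible near copy, OYG_10003519_10029507, had that order in gill alone. It had 20.5 RPKM in G2-H and no read in G2-L, but 19.9 RPKM in M2-H against 62.1 in M2-L. The metal regulatory transcription factor 1, which switches on metallothionein genes in mammals, stayed between 18.4 and 27.0 RPKM in all 8 libraries.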

How the data were processed

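The labels gave the tissue and Cu class of a library, and the study's methods gave exposure and pool size. The authors mapped filtered tags uniquely to the *C. gigas* genome with TopHat, compared libraries with Cufflinks and deposited RPKM values, in which a dash stands for no reads. TopHat was of generation 2 and allowed at most 1 mismatch, and further versions, strand and annotation are not given in the sources used here. Some passages describe 21-base tags with a restriction site and others randomly primed fragments. Gene lengths were nearly all multiples of 3 (99.8%) and are coding lengths.

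Limma 3.58.1 (R 4.3.3) was run with an intensity trend on the log2 of RPKM plus 0.1 for genes averaging 1 RPKM or more, with terms for tissue, Cu class and oyster group (4 residual degrees of freedom), and p-values were adjusted by the Benjamini-Hochberg method across the tested genes. The added 0.1 draws the ratio between 2 libraries toward 1 in low genes. Where some libraries had no read, the fitted fold could still exceed the ratio of the reads. For ZIP12 OYG_10008479_10034801 it was 21.4 between tissues, against 9.97 from the reads. The oyster group number marks exposure, a condition and not a replicate, and served as the block. Deviations of same-numbered libraries from their group means correlated between 0.0181 and 0.194 over genes. Because each condition had 1 pooled library, p-values measure only the spread between such libraries after the additive terms. Gill and mantle of a condition share their oysters, so p-values for Cu class, exposure and the Cu by exposure term treat 2 tissues of 1 set as separate samples. Alternatives with a term for each oyster set, or on the mean of both tissues, were added after the data had been seen.

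Whole reads came out for 100% of the 25181 genes with any read (largest distance from a whole number 1.86e-05), and served for exact Clopper-Pearson 95% intervals, a floor of 3 reads and limma-voom. Intervals and floors cover counting error only. The steps were tested on simulated data. Python 3.11.15 with numpy 2.4.6, pandas 2.3.3, scipy 1.17.1 and matplotlib 3.10.9 was used.

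Genes described singly were those with a mean RPKM of at least 20, a call in a contrast, one of the 3 largest differences in either direction of a contrast or a 2-fold difference in both pairs of a tissue, and all copper, ferritin and ceruloplasmin genes. The genes, lists and tests were chosen with earlier results of these data known. Any further gene was picked with its values in view. None of the gene identifiers (0) matched the RefSeq gene table, so no coordinates or sequences are given. Alternatives were other pseudocounts (1 and 0.01), no filter or a mean of 5 RPKM or more, median centring, quantile normalization, no trend, limma-voom, other blocks, a log2 threshold of 2, and each library left out in turn.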

Additional observations from a re-analysis of the deposited data

Results flagged for a closer look

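Within the 4 gill and the 4 mantle libraries, the RPKM of each gene described singly was searched for a library far from the other 3. Of 46 groups checked, 7 held such a library, where chance flags about 1 in 20 groups of genes not chosen for their values. That rate is for replicate values with a normal spread, whereas the 4 libraries of a tissue were different conditions. These genes were also chosen partly for large differences, so that share is not what to expect of them. Of the 7, 5 lay in G2-L or M2-L. In gill, G2-L was far above the others for the copper-transporting ATPase 1 gene OYG_10001203_10031298 (31.4 RPKM, others 7.38 to 9.96) and for zinc transporter 1 (187 RPKM, others 47.1 to 69.5). In mantle, M2-L was far above the others for ZIP1 OYG_10024789_10035740 (180 RPKM, others 9.02 to 11.5) and for ZIP1 OYG_10012799_10035739 (40.4 RPKM, others 6.72 to 11.2), and far below them for mitoferrin-1 OYG_10007145_10040099 (0.454 RPKM from 1 read, others 2.58 to 2.78). G2-H was far below the other gill libraries for SLC39A7 OYG_10001049_10039109 (5.45 RPKM from 11 reads, others 22.4 to 24.8). M2-H was far above the other mantle libraries for CNNM2 OYG_10025747_10031490 (15.7 RPKM, others 7.39 to 7.42), the gene that was higher in gill.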

How the results depend on the processing

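Between gill and mantle, 6 genes were called as reported, between 5 and 7 under the other normalizations, pseudocounts, filters and fits, between 4 and 6 with 1 library left out, and 4 without G2-L and M2-L. Without the term for the oyster group 3 were called, 1 higher and 2 lower in gill. Over all tested genes 1967 were called higher and 1191 lower in gill, and 1555 higher and 1443 lower after median centring, which shifted the median log2 difference of all genes by -0.21 between tissues, by -0.16 between Cu classes and by 0.09 between exposure groups, and gave the 36 genes a median of -0.13 between Cu classes. None of the 36 genes was called for Cu content or exposure in any alternative, also not with the mean of gill and mantle of each oyster set (1 residual degree of freedom). Over all tested genes, 6 were called for Cu content without the trend and 7 with those means, and 62 for exposure by limma-voom and 158 with those means. For Cu content the term for the oyster group, taken within tissue or left out, gave 0 calls among the 36. For exposure, which that term marks, no such fit was made. With a term for each of the 4 oyster sets, 5 genes were called between tissues, and ferritin was not. At a log2 threshold of 2, the genes changed in both pairs fell to 0 in gill, 0 in mantle and 1 in the exposed oysters. That threshold is the one in the study's methods, used here without a significance cut-off. The mantle count was also 0 with a pseudocount of 1 and when genes had to average 5 RPKM. The count of genes highest in G2-L and M2-L was 4 when a 2-fold lead was required. No difference of tissue, Cu content or exposure with an unadjusted p under 0.05 changed sign in any alternative. The causes of these changes were not tested. Depth limits 9 of the 36 genes, which had libraries under 10 reads: both mitoferrins, the copper chaperone, ZIP12 OYG_10008479_10034801, ZIP1 OYG_10024789_10035740 (9 reads in G2-H), ZIP1 OYG_10024973_10042057, ZIP3 OYG_10024788_10026441, ZIP6 and zinc transporter 2.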
